A study of Mus musculus with 12 samples.

Results

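The mitochondrial ribosomal protein genes were the 78 genes, of 17990 in the expression tables of both tissues, whose symbol is Mrpl or Mrps followed by a number and at most one letter (A to C). The names count 49 proteins of the large subunit (Mrpl) and 29 of the small subunit (Mrps), and the genes lie on 17 chromosomes. All 78 genes averaged at least 0.5 FPKM and entered the test in both tissues, FPKM being sequenced fragments divided by transcript length and library size. Levels below are gene sums over 191 transcripts, since 58 of the genes had more than 1 transcript and 20 had a single one.

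RNA was taken from a pair of regions of the mouse brain in which neurons are still born after birth, the hippocampal dentate gyrus (DG) and, beside the lateral ventricles, the subventricular zone (SVZ). Knockout (KO) mice carried the genotype hGFAP/+;Dpy30F/- and control mice hGFAP/+;Dpy30F/+, so that hGFAP and 1 F allele were common to both genotypes. Each of the 4 groups, DG KO, DG control, SVZ KO and SVZ control, held 3 polyA+ RNA-seq libraries, 12 in all. Dpy30 encodes a core subunit shared by the SET1/MLL histone methyltransferase complexes, and the genotypes ask how its loss alters expression in each region. Neural stem and progenitor cells lie there among many other cells, all of which entered the RNA. The labels do not spell out hGFAP or F and give no age. They also do not say that the libraries of a group came from separate animals. The p-values therefore measure the spread between libraries, which may be technical in whole or in part. In such bulk tissue, fewer cells of a type and less RNA per cell cannot be told apart.

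The mitochondrial ribosome translates the few messages of the mitochondrial genome, which encode core subunits of the respiratory chain. Its RNAs come from the mitochondrial genome, whereas its proteins are encoded in the nucleus, made in the cytosol and imported. Many subunits descend from bacterial ribosomal proteins and keep the bacterial number, and others joined the particle in the eukaryotic lineage. Here Mrpl genes numbered up to 36 and Mrps genes numbered up to 21 were grouped as numbered like bacterial proteins (28 and 16 genes), and the rest as higher numbers (21 and 13 genes). Number and origin do not always match, since Mrps24 and Mrpl47 have bacterial counterparts under other numbers. Structures of the mammalian particle place the products of Mrps30 and Mrps18a in the large subunit, and the Mrps36 product is now counted with the alpha-ketoglutarate dehydrogenase complex.

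Depth and tissue markers frame the comparisons. Depth was estimated from the steps between low FPKM values, scaled by length, of genes with 1 transcript. In each library, 55.8% to 65.2% of these values lay within 0.1 of a whole step. By this estimate a 1 kb transcript held 48.5 to 65.9 reads per FPKM in the DG KO libraries, against 26.7 to 42.2 in the DG control libraries. The estimates were 34.1 to 50.2 in the SVZ KO libraries, against 37.0 to 46.0 in the SVZ control libraries. Dpy30 itself was at 6.21, 6.89 and 5.68 FPKM in DG KO libraries a, b and c, against 8.43, 8.38 and 10.1 FPKM in DG control libraries. It was at 8.83, 5.04 and 4.87 FPKM in SVZ KO libraries, against 7.73, 8.25 and 9.43 FPKM in SVZ control libraries. The library labelled SVZ KO a therefore had Dpy30 within the range of its controls, against its label, and SVZ results are also given without it. In the DG, 6 of 8 granule neuron markers passed the 0.5 FPKM minimum, and the defining marker Prox1 was uneven, at 1.19 to 1.93 FPKM in KO libraries and 0.963 to 10.7 FPKM in control libraries. The 6 markers together summed to 25.6 to 35.1 FPKM in DG KO libraries, against 38.3 to 62.1 FPKM in DG control libraries. All 6 had a negative KO minus control, at a median log2 difference of -0.62, and 1 had all KO libraries below all controls. No marker of any list was at 0 in any library. By Xist, DG KO a, DG control c and SVZ control a came from female mice and the other libraries from male mice. The DG KO, DG control and SVZ control groups thus held both sexes, while libraries of 1 sex within a group may still share an animal.

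Short promoter elements that recur upstream of genes for mitochondrial proteins include the core of ETS sites, bound by GABPA among others, the site of NRF1 and the site of YY1. RefSeq promoter windows of GRCm38.p6, from 250 bases before to 50 bases after the annotated start, were at hand for 69 of the 78 genes, in 75 windows. CCGGAAG, the ETS core, stood on either strand of 26 of these windows (34.7%), against 8.86% of all 32851 windows and 15.8% of the 13392 windows of the other genes tested in the DG. GCGCATGCG, the NRF1 site, stood in 7 windows (9.33%), against 1.75% of all windows and 3.32% of those of the other tested genes. AAGATGGCG, the YY1 site, stood in 8 windows (10.7%), against 1.40% and 2.73%. The NRF1 letters nearly mirror themselves, so that matches on both strands overlap, and CCGGAAG and AAGATGGCG can share the letters AAG. At least 1 of the 3 motifs was found in 48.0% of the windows, against 11.4% of all windows and 20.5% of those of the other tested genes. A match of letters is not a measured binding site.

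Windows of 4 genes that recur below are shown from 120 bases before to 30 bases after the start, 5′ to 3′ along the gene, with the motif in capitals. Mrpl33 (chr5:31613831-31613980, plus strand) had the largest KO to control ratio in the DG and holds an ETS core that spans the start. Mrps21 (chr3:95871485-95871634, minus strand) was the most abundant gene of the family and holds an ETS core on the opposite strand after the start. Mrpl17 (chr7:105811058-105811207, minus strand) holds an NRF1 site just before the start, and Mrps11 (chr7:78783011-78783160, plus strand) a YY1 site on the opposite strand, upstream of the start.
Mrpl33: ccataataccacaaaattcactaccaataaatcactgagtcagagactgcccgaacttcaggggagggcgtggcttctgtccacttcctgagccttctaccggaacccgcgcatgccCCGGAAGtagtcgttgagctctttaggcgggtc
Mrps21: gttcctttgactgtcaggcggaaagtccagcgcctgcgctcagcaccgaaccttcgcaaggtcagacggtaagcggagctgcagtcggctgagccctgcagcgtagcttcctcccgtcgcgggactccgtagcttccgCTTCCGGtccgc
Mrpl17: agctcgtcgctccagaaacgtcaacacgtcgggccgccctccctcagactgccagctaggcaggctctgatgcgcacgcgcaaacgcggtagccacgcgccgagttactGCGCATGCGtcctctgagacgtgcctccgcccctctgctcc
Mrps11: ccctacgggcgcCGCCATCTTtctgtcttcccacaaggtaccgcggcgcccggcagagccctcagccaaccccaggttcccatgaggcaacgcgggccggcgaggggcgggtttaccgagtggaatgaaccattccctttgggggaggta
Medians of KO minus control in the DG, on the log2(FPKM + 1) scale, were 0.17 with and 0.18 without an ETS core. For the NRF1 site they were 0.28 with (7 genes) and 0.17 without. For the YY1 site they were 0.15 with (8 genes) and 0.18 without. These are descriptions with no test.

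The levels of the family were ordered alike in both tissues. Spearman's rho between the control means of the DG and the SVZ was 0.95 over the 78 genes, which are not independent replicates and share their libraries, annotation and transcript lengths. Control means ran from 1.12 to 58.0 FPKM in the DG and from 0.712 to 60.5 FPKM in the SVZ, and 36 genes in the DG and 39 in the SVZ lay between 10 and 20 FPKM. Mrps21, a homologue of a bacterial small subunit protein, and Mrpl41 and Mrpl20 of the large subunit were highest in the controls of both tissues. Mrpl41 was at 58.7, 50.8 and 49.6 FPKM in DG KO libraries, against 49.0, 46.0 and 48.7 FPKM in DG control libraries, with only KO a well apart. Mrpl23, Mrpl1 and Mrpl22, all large subunit genes with bacterial numbers, were lowest in both, and Mrpl1 was at 3.67, 2.82 and 2.73 FPKM in DG KO libraries and 2.26, 2.86 and 2.85 FPKM in DG control libraries. Within a group the libraries lay close together, with a median coefficient of variation over genes of 5.56% in DG KO, 7.65% in DG control, 8.48% in SVZ KO and 8.94% in SVZ control libraries.

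**Figure D1:**
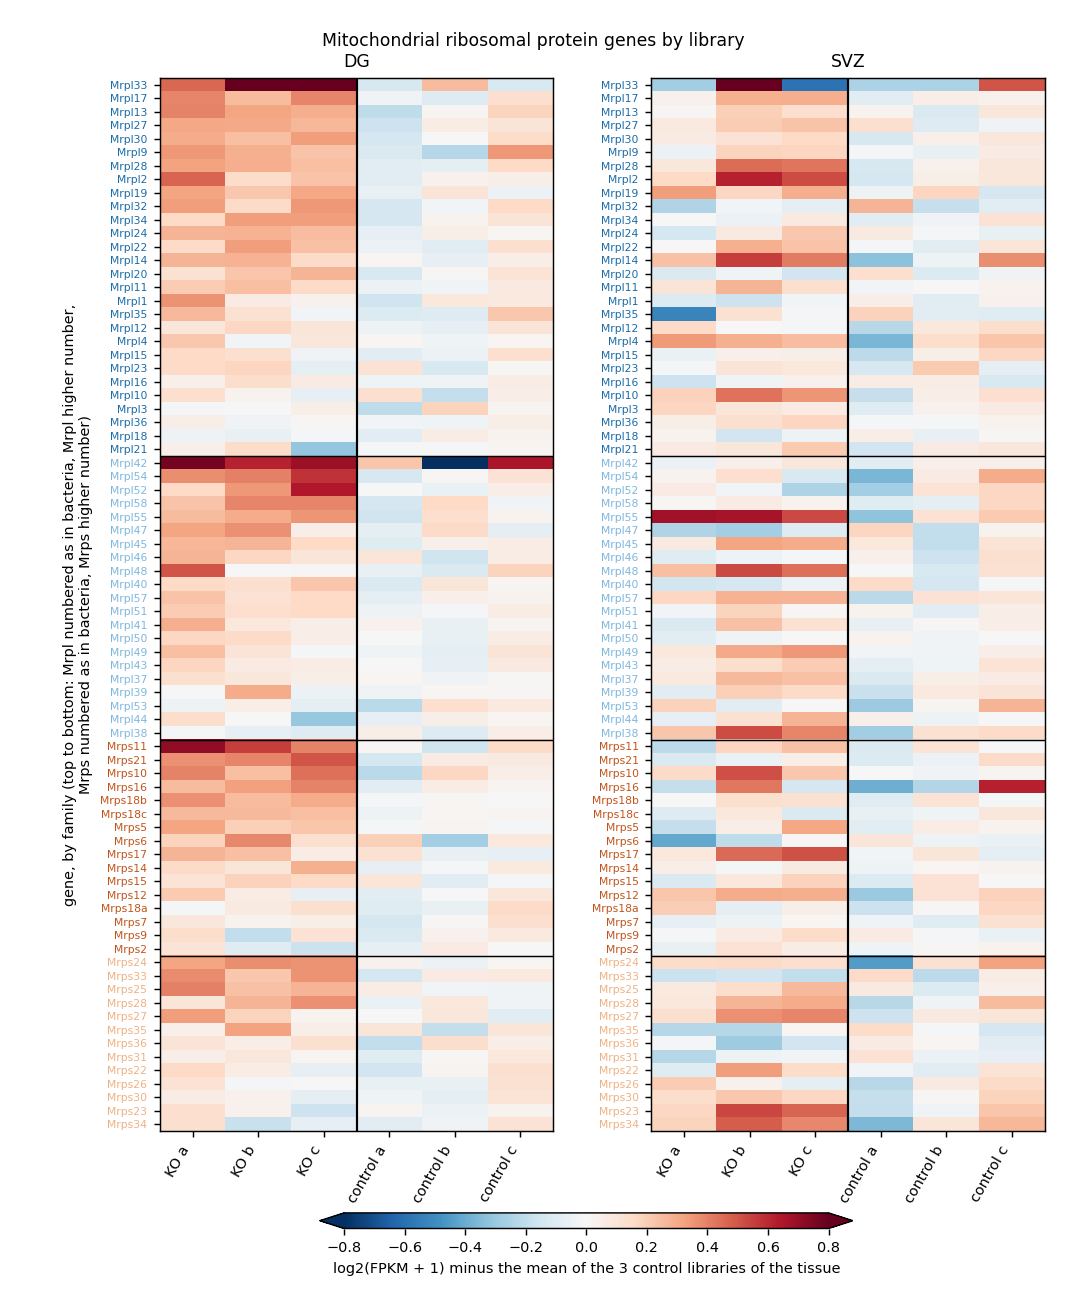
Heat map of the 78 genes (lines) in 6 libraries of each tissue (columns, KO left of control), coloured by log2(FPKM + 1) minus the mean of the 3 control libraries of that tissue; colours stop at 0.8 either way. In the DG the KO columns are red for most genes, with 38 genes above every control library, and in the SVZ red is strongest in KO b and KO c, with 15 such genes.

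In the dentate gyrus, most mitochondrial ribosomal protein genes were slightly higher in KO than in control libraries, and no single gene passed the test. The summed level of the family was 1468, 1444 and 1430 FPKM in DG KO libraries a, b and c, against 1196, 1231 and 1314 FPKM in DG control libraries. Every KO sum lay above every control sum. The KO to control ratio of mean FPKM had a median of 1.15 over the family, against 1.08 over all 15454 genes tested. KO minus control was positive for 71 of 78 genes (91.0%), against 65.3% of all genes tested, with a median of 0.17 against 0.09 on the log2(FPKM + 1) scale.

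By limma with Benjamini-Hochberg adjustment at 0.05 over all genes tested, 0 of 78 genes passed in the DG, where 0.699% of all genes passed. At an unadjusted limma p under 0.05 there were 31 of 78 genes, all higher in KO, against 26.5% of all genes in either direction and 19.5% in the higher direction. All 3 KO libraries lay above all 3 control libraries for 38 genes (48.7%), against 25.9% of all genes. All 3 KO libraries lay below the controls for 0 genes, against 7.82% of all genes. Under centring of each library on its median, 26 genes lay above and 3 below, against 15.9% and 13.0% of all genes, and 59 were positive (52.6% of all genes). Under quantile normalization 30 genes lay above and 0 below, against 17.5% and 11.4% of all genes, and 62 were positive (54.3% of all genes). Without any 1 library the median stayed between 0.16 and 0.20, with 63 to 73 genes positive.

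The 38 separated genes spread over both subunits. Of the large subunit genes with bacterial numbers they were 14 of 28, Mrpl2, Mrpl11, Mrpl13, Mrpl14, Mrpl17, Mrpl19, Mrpl20, Mrpl22, Mrpl24, Mrpl27, Mrpl28, Mrpl30, Mrpl33 and Mrpl34. Of the higher-numbered large subunit genes they were 11 of 21, Mrpl37, Mrpl40, Mrpl41, Mrpl45, Mrpl46, Mrpl51, Mrpl52, Mrpl54, Mrpl55, Mrpl57 and Mrpl58. Of the small subunit genes they were 9 of 16 with bacterial numbers, Mrps5, Mrps10, Mrps11, Mrps14, Mrps15, Mrps16, Mrps18b, Mrps18c and Mrps21, and 4 of 13 with higher numbers, Mrps24, Mrps25, Mrps28 and Mrps33. The medians of KO minus control were 0.22, 0.17, 0.21 and 0.09 in these 4 groups in the same order, and the differences between groups were not tested.

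Among large subunit genes numbered like bacterial proteins, Mrpl33 had the largest difference of the family. It was at 17.7, 34.6 and 24.0 FPKM in DG KO libraries, against 11.4, 15.2 and 11.5 FPKM in DG control libraries. The lowest KO library lay above the highest control library, and KO b stood well above the other KO libraries. The ratio was 2.00, the log2 difference 0.91 with a standard error (SE) of 0.24, and the limma adjusted p was 0.0858. Mrpl33 lies at chr5:31596935-31664384, and 96.1% of its KO level and 93.1% of its control level came from 1 transcript of 478 bases.

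Mrpl17, whose promoter window holds the NRF1 site shown above, was at 21.8, 19.8 and 21.8 FPKM in DG KO libraries, against 16.1, 15.2 and 18.1 FPKM in DG control libraries (log2 difference 0.35, SE 0.09, limma adjusted p 0.0829). Mrpl24 was at 24.0, 24.1 and 23.4 FPKM in DG KO libraries, against 18.7, 20.3 and 19.9 FPKM in DG control libraries (0.27, SE 0.07, limma adjusted p 0.0789). Neither gene overlapped between the groups. Mrpl12, Mrpl10 and Mrpl11 encode proteins of the stalk of the large subunit, which recruits translation factors. Mrpl12, also reported in human cells to bind the mitochondrial RNA polymerase, was at 24.3, 25.6 and 24.5 FPKM in DG KO libraries, against 22.1, 21.7 and 24.6 FPKM in DG control libraries. Its groups overlapped, as did those of Mrpl10, at 20.1, 18.5 and 17.3 FPKM in DG KO libraries and 20.1, 15.8 and 18.9 FPKM in DG control libraries. Mrpl11 was at 9.84, 10.1 and 9.48 FPKM in DG KO libraries, against 8.12, 8.26 and 8.93 FPKM in DG control libraries, without overlap.

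Of the higher-numbered large subunit genes, Mrpl54, a subunit without a bacterial counterpart at chr10:81264713-81266934, had the smallest p. It was at 20.8, 21.4 and 24.2 FPKM in DG KO libraries, against 14.5, 16.0 and 17.3 FPKM in DG control libraries, with no overlap (log2 difference 0.45, SE 0.10, limma adjusted p 0.0645). Mrpl45, which lies at the exit of the peptide tunnel and ties the particle to the inner membrane, was at 6.98, 7.05 and 6.42 FPKM in DG KO libraries, against 5.22, 5.84 and 5.93 FPKM in DG control libraries. Mrpl42 came next to Mrpl33 in log2 difference, at 0.69 (SE 0.36, limma adjusted p 0.267). Its levels were 19.5, 17.5 and 18.4 FPKM in DG KO libraries, against 13.0, 5.59 and 17.9 FPKM in DG control libraries, so that DG control b alone was far down. Without DG control b the log2 difference of Mrpl42 was 0.26.

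The 7 genes with a negative difference in the DG were Mrpl18, Mrpl21, Mrpl38, Mrpl44, Mrpl53, Mrps2 and Mrps34, and all were close to 0. The most negative was Mrpl38, at 19.2, 18.6 and 18.1 FPKM in DG KO libraries, against 20.2, 18.1 and 20.2 FPKM in DG control libraries (log2 difference -0.06, SE 0.08, limma adjusted p 0.629). Mrpl44, a neighbour of Mrpl45 in the particle with a ribonuclease III fold, was at 8.51, 7.60 and 5.99 FPKM in DG KO libraries, against 7.25, 7.92 and 7.75 FPKM in DG control libraries. Its groups overlapped, and DG KO c was the lowest library, without which its log2 difference was 0.07 in place of -0.06.

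In the small subunit, Mrps24 at chr11:5703983-5715680 had the smallest p of the family in the DG. It was at 38.8, 40.3 and 40.0 FPKM in DG KO libraries, against 31.7, 29.9 and 31.3 FPKM in DG control libraries. The libraries of each group lay within 2 FPKM of each other and the groups were far apart, at a ratio of 1.28. The log2 difference was 0.35 with an SE of 0.06, and the limma adjusted p was 0.0562, which did not pass. By its main transcript alone the log2 difference was 0.58. Mrps24 shares 226 exon bases with Urgcp on the same strand, so reads there could be counted for either gene.

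Mrps11, a homologue of a bacterial small subunit protein at chr7:78783119-78792989, was at 22.2, 19.8 and 17.7 FPKM in DG KO libraries, against 13.3, 11.7 and 14.8 FPKM in DG control libraries. The groups did not overlap, at a ratio of 1.50 (log2 difference 0.55, SE 0.12, limma adjusted p 0.0640). By its main transcript alone the log2 difference was 0.15. Mrps11 and Mrpl46 share 173 exon bases on opposite strands, and the sources used here do not give whether counting used strand. Mrps21 at chr3:95862634-95871519 was at 74.7, 76.2 and 82.2 FPKM in DG KO libraries, against 52.4, 60.6 and 60.8 FPKM in DG control libraries. Its groups did not overlap either, and it carried the largest difference of mean FPKM in the family (log2 difference 0.42, SE 0.09, limma adjusted p 0.0640).

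Mrps16, whose loss of function impairs mitochondrial translation in humans, was at 9.99, 10.6 and 11.1 FPKM in DG KO libraries, against 7.70, 8.59 and 8.35 FPKM in DG control libraries (log2 difference 0.33, SE 0.08, limma adjusted p 0.0773). Of the 3 paralogues Mrps18a, Mrps18b and Mrps18c, the last 2 did not overlap between the groups. Mrps18b was at 13.0, 11.9 and 12.3 FPKM in DG KO libraries, against 9.81, 9.97 and 9.84 FPKM in DG control libraries (log2 difference 0.30, limma adjusted p 0.0708). Mrps18c was at 17.3, 17.4 and 17.1 FPKM in DG KO libraries, against 13.9, 14.5 and 14.6 FPKM in DG control libraries (0.25, limma adjusted p 0.0811). Mrps18a overlapped between the groups, at 33.1, 35.2 and 36.7 FPKM in DG KO libraries and 31.3, 32.0 and 37.4 FPKM in DG control libraries.

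Mrps25 was separated too, at 21.9, 19.4 and 20.0 FPKM in DG KO libraries, against 17.0, 16.0 and 15.9 FPKM in DG control libraries (log2 difference 0.31, limma adjusted p 0.0789). It shares 4590 exon bases with Nr2c2 on the opposite strand. Several further genes with Mrps names overlapped between the groups. Mrps12, next to the decoding site, was at 32.8, 29.5 and 26.9 FPKM in DG KO libraries and 26.6, 28.2 and 30.2 FPKM in DG control libraries. Mrps7 was at 20.5, 19.5 and 19.8 FPKM in DG KO libraries and 17.3, 19.2 and 21.1 FPKM in DG control libraries. Mrps22, Mrps30 and Mrps2 had ratios of 1.04, 1.00 and 0.962, and Mrps36 had 1.07.

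**Figure D2:**
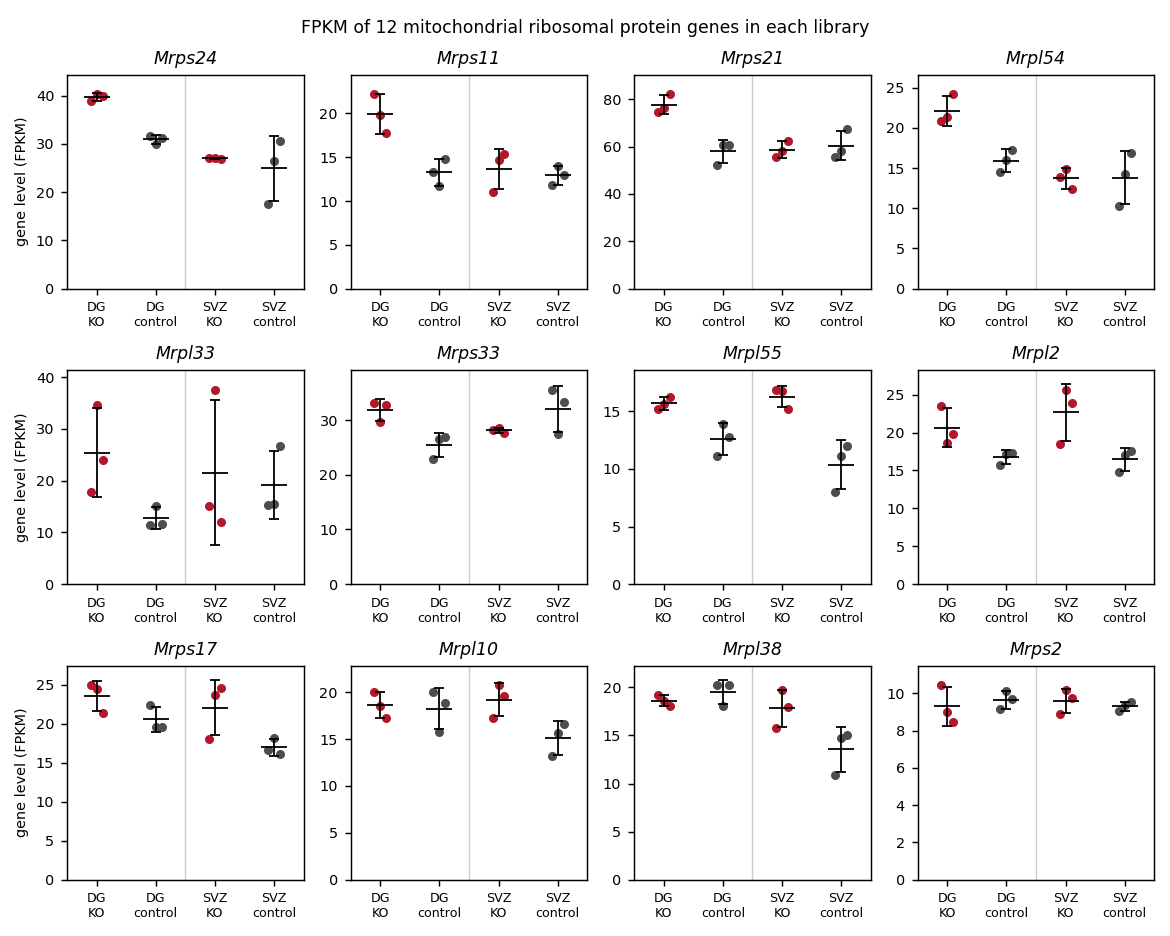
Gene level in FPKM (y axes from 0) of 12 genes in every library of DG KO, DG control, SVZ KO and SVZ control; points are libraries, and the bars give the mean and SD of 3. Mrps24, Mrps11, Mrps21 and Mrpl54 have DG KO points clear of the DG control points and overlapping points in the SVZ, whereas Mrpl55 and Mrpl2 have KO points above control points in both tissues.

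Markers of several cell types also differed between the DG groups. Of all genes tested in the DG, 25.9% had all KO libraries above all controls and 7.82% had them below. Markers of mature neurons summed to 915 to 1320 FPKM in DG KO libraries, against 1740 to 1963 FPKM in DG control libraries, and 8 of 9 had all KO libraries below all controls. Markers of myelinating oligodendrocytes summed to 132 to 137 FPKM in DG KO libraries, against 247 to 2435 FPKM in DG control libraries, with 8 of 8 tested genes below. Markers of neural stem cells and radial glia summed to 473 to 877 FPKM in DG KO libraries, against 209 to 321 FPKM in DG control libraries. All KO libraries lay above all controls for 3 of 8 genes (37.5%, against 25.9% of all genes) and below for 0. The list was mixed, with 6 positive and 2 negative log2 differences, from -0.95 to 1.56. Its median marker level was 16.0 FPKM in KO and 15.7 FPKM in control libraries. Markers of cycling cells summed to 28.5 to 42.2 FPKM in DG KO libraries, against 21.9 to 26.8 FPKM in DG control libraries. Of these, 3 of 8 (37.5%) lay above all controls, against 25.9% of all genes. Striatal markers were uneven, from 34.5 FPKM in control c to 708 FPKM in control b, and from 54.6 FPKM in KO a to 690 FPKM in KO c. Astrocyte markers summed to 362 to 410 FPKM in DG KO libraries, against 511 to 681 FPKM in DG control libraries, with 3 of 8 below, of which 1 passed. Fibroblast markers summed to 56.8 to 75.7 FPKM in DG KO libraries, against 23.5 to 66.0 FPKM in DG control libraries, with 4 of 7 above. Ependymal markers summed to 10.5 to 31.0 FPKM in DG KO libraries, against 6.68 to 13.5 FPKM in DG control libraries. These sums overlapped, and 0 of 6 ependymal markers lay above all controls. All 6 had a positive difference, at a median of 0.73, where 65.3% of all genes were positive. Markers of blood summed to 1446 to 4124 FPKM in DG KO libraries, against 779 to 1217 FPKM in DG control libraries. Of 8 microglia markers 0 lay above all controls and 1 below, and of 7 endothelial markers 0 and 0, at medians of 0.07 and 0.09. Of 7 oligodendrocyte precursor markers 1 lay above and 2 below, and 2 passed as lower. Neuroblast markers had 1 of 9 above and 0 below, at a median of 0.35. Hippocampal CA pyramidal markers had 0 of 7 above and 1 below, at a median of -0.57. The part of these shifts, of the granule neuron markers and of the higher estimated depth of the DG KO libraries in the levels of the family was not tested.

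In the subventricular zone, too, more genes of the family were higher than lower in KO libraries, and no single gene passed with all libraries. The summed level of the family was 1224, 1360 and 1325 FPKM in SVZ KO libraries a, b and c, against 1138, 1198 and 1299 FPKM in SVZ control libraries. KO a and control c crossed, so the groups overlapped. By limma with Benjamini-Hochberg adjustment, 0 of 78 genes passed, where 1 of all 15159 genes tested passed (0.0066%). At an unadjusted limma p under 0.05 there were 9 genes, all higher in KO, 11.5% of the family against 12.6% of all genes in either direction and 5.79% in the higher direction. KO minus control was positive for 59 genes (75.6%), against 55.5% of all genes, with a median of 0.07 against 0.03 over all genes tested.

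All SVZ KO libraries lay above all SVZ control libraries for 15 genes (19.2%), against 7.86% of all genes, and below them for 0 genes, against 7.78% of all genes. The 15 genes were Mrpl2, Mrpl4, Mrpl10, Mrpl11 and Mrpl36, then Mrpl37, Mrpl38, Mrpl48, Mrpl49, Mrpl55 and Mrpl57, and in the small subunit Mrps10, Mrps12, Mrps25 and Mrps27. The median rested in part on single libraries. It was 0.14 without SVZ KO a, 0.13 without SVZ control c and 0.04 without SVZ control a, which had the lowest sum of the family and was the only SVZ library from a female mouse. In the DG control libraries the female mouse had the highest sum.

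Mrpl55, a large subunit protein without a bacterial counterpart at chr11:59202486-59206134, had the largest difference and the smallest p in the SVZ. It was at 16.9, 16.8 and 15.2 FPKM in SVZ KO libraries, against 7.97, 11.2 and 12.0 FPKM in SVZ control libraries. The groups did not overlap, at a ratio of 1.57 (log2 difference 0.62, SE 0.15, limma adjusted p 0.367). Mrpl48 was at 8.94, 11.1 and 10.4 FPKM in SVZ KO libraries, against 7.40, 6.71 and 8.16 FPKM in SVZ control libraries (0.40, SE 0.13, limma adjusted p 0.367). Mrpl38, the most negative gene in the DG, was at 15.8, 19.7 and 17.9 FPKM in SVZ KO libraries, against 10.9, 14.7 and 15.0 FPKM in SVZ control libraries (0.38, SE 0.15, limma adjusted p 0.375). Its difference was 0.24 without SVZ control a and 0.22 by its main transcript alone.

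Mrpl2, a homologue of a bacterial protein close to the peptidyl transferase centre, at chr17:46646229-46650139, was at 18.5, 25.7 and 24.0 FPKM in SVZ KO libraries, against 14.8, 17.0 and 17.5 FPKM in SVZ control libraries. KO a lay just above the highest control and the other KO libraries well above it. Mrps17 at chr5:129715497-129722556 was at 18.0, 23.7 and 24.6 FPKM in SVZ KO libraries, against 16.7, 18.2 and 16.1 FPKM in SVZ control libraries, where KO a lay within the control range. With all libraries their log2 differences were 0.43 and 0.35, and neither passed (limma adjusted p 0.367 and 0.375). By its main transcript alone Mrps17 had a log2 difference of 0.26. This transcript, Mrps17-201, was at 6.81, 8.12 and 9.52 FPKM in SVZ KO libraries. It was at 5.88, 8.38 and 5.70 FPKM in SVZ control libraries, so its groups overlapped even when SVZ KO a was set aside. Without the library labelled SVZ KO a, Mrpl2 rose by 0.57 (limma adjusted p 0.0309) and Mrps17 by 0.48 (limma adjusted p 0.0368). These were 2 of 78 genes passing as higher, 2.56% of the family, and 0 as lower, where 4.21% of all genes passed as higher and 4.48% as lower. Markers of myelinating oligodendrocytes summed to 280 and 212 FPKM in SVZ KO b and c. They summed to 3986 FPKM in SVZ KO a and to 3038 to 6128 FPKM in SVZ control libraries. The part of this difference in the 2 calls was not tested.

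Mrpl10 of the stalk was at 17.3, 20.8 and 19.6 FPKM in SVZ KO libraries, against 13.1, 15.7 and 16.6 FPKM in SVZ control libraries (log2 difference 0.32, limma adjusted p 0.375). Mrps10 was at 6.56, 8.74 and 6.92 FPKM in SVZ KO libraries, against 5.83, 5.69 and 5.92 FPKM in SVZ control libraries (0.29, limma adjusted p 0.396). Both were separated, with KO b highest, and the difference of Mrps10 was 0.18 without SVZ KO b. Mrps27, an RNA-binding pentatricopeptide repeat protein, was at 9.32, 11.1 and 11.3 FPKM in SVZ KO libraries, against 7.39, 8.91 and 9.08 FPKM in SVZ control libraries (0.29, limma adjusted p 0.396). Mrps23 and Mrpl28 completed the 10 smallest p-values of the tissue, with ratios of 1.32 and 1.26 and overlapping libraries. By its main transcript alone the log2 difference of Mrps23 was 0.18, against 0.39.

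Of the 19 genes with a negative difference in the SVZ, the most negative were Mrpl47, Mrps6 and Mrps33. Mrpl47 was at 4.93, 4.80 and 5.53 FPKM in SVZ KO libraries, against 6.88, 5.11 and 6.15 FPKM in SVZ control libraries (log2 difference -0.21, limma adjusted p 0.515). Mrps6 was at 12.3, 14.4 and 16.8 FPKM in SVZ KO libraries, against 17.9, 16.3 and 16.1 FPKM in SVZ control libraries (-0.20, limma adjusted p 0.517). Their groups overlapped. The difference of Mrps6 was -0.10 without the library labelled SVZ KO a and -0.31 without SVZ KO c, and that of Mrpl47 was -0.12 without SVZ control a. Mrpl33, the largest difference of the DG, ranged widely in the SVZ, at 15.1, 37.6 and 11.9 FPKM in KO libraries and 15.4, 15.4 and 26.7 FPKM in control libraries.

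Markers of myelinating oligodendrocytes varied within the SVZ, at 3986, 280 and 212 FPKM in KO libraries a, b and c, against 3038 to 6128 FPKM in control libraries, and 9 of 9 were lower on average in KO. Markers of astrocytes summed to 475 to 777 FPKM in SVZ KO libraries, against 824 to 1103 FPKM in SVZ control libraries, with 5 of 8 genes below every control. Of all genes tested in the SVZ, 7.78% had all KO libraries below every control. Microglia markers summed to 97.6 to 124 FPKM in SVZ KO libraries, against 135 to 186 FPKM in SVZ control libraries (6 of 8 below), endothelial markers to 57.0 to 67.8 FPKM, against 72.0 to 88.8 FPKM (5 of 7 below), and striatal markers to 370 to 425 FPKM, against 472 to 624 FPKM (5 of 8 below). Mature neuron markers summed to 2211 to 2448 FPKM in SVZ KO libraries, against 1982 to 2290 FPKM in SVZ control libraries. The part of these shifts in the SVZ levels of the family was not tested.

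The KO effect on the family was set against itself in both tissues. KO minus control was positive in both tissues for 53 genes (67.9%), against 38.8% of all 14922 genes tested in both. It was positive in the DG only for 18 genes (23.1%, against 26.2% of all genes) and in the SVZ only for 6 (7.69%, against 16.7%). The KO libraries lay above the controls in both tissues for 7 of 78 genes, where 1.77% of all genes did. The 7 genes were Mrpl2, Mrpl11, Mrpl37, Mrpl55, Mrpl57, Mrps10 and Mrps25. For the difference of the KO effects, limma with Benjamini-Hochberg adjustment over 14922 genes called 0 of 78, where 0.0335% of all genes passed. At an unadjusted limma p under 0.05 there were 9 genes (11.5%), against 15.9% of all genes.

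Mrps33, Mrps21 and Mrps18c had the smallest p for the difference. Mrps33 at chr6:39801804-39810988 was at 33.2, 29.6 and 32.8 FPKM in DG KO libraries, against 22.9, 26.6 and 26.8 FPKM in DG control libraries. It was at 28.2, 28.6 and 27.7 FPKM in SVZ KO libraries, against 35.6, 27.4 and 33.3 FPKM in SVZ control libraries. KO libraries were thus above the controls in the DG and within their range, near its low end, in the SVZ. The SVZ effect minus the DG effect was -0.49 for Mrps33 (SE 0.15, limma adjusted p 0.158), -0.46 for Mrps21 (SE 0.14, limma adjusted p 0.158) and -0.30 for Mrps18c (SE 0.11, limma adjusted p 0.247). For Mrpl38 it was 0.44 (SE 0.17, limma adjusted p 0.248). Mrps21 was at 55.4, 58.1 and 62.4 FPKM in SVZ KO libraries, against 55.8, 58.3 and 67.3 FPKM in SVZ control libraries, and these groups overlapped.

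**Figure D3:**
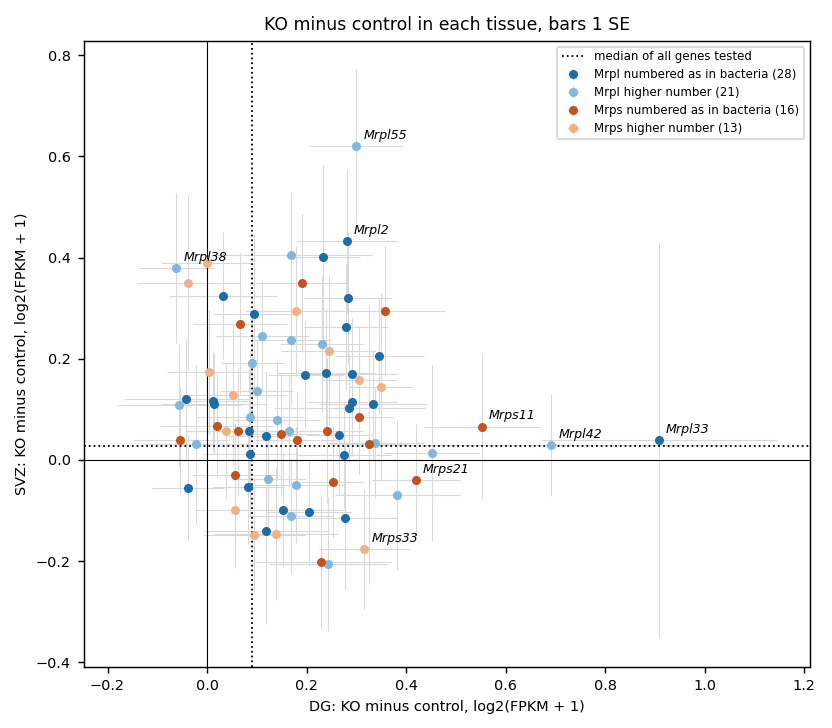
KO minus control on the log2(FPKM + 1) scale in the DG (x axis) and SVZ (y axis) for the 78 genes, coloured by family, with bars of 1 SE; dotted lines mark the median of all genes, 0.09 for the DG and 0.03 for the SVZ. Points crowd right of 0 in the DG (71 of 78) and are centred close to 0 in the SVZ (59 of 78 positive).

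The deposited comparison of single transcripts gave a like picture for the DG. In the authors' deposited table, 29 of 191 transcripts of the family had p under 0.05 with KO higher and 1 with KO lower in the DG, where 8.96% and 5.38% of all 40483 transcripts did. In the SVZ there were 23 with KO higher and 2 with KO lower, where 5.21% and 4.86% of all transcripts did. None of the 191 transcripts passed the authors' step-up false discovery rate of 0.05, the smallest being 0.105 in the DG and 0.445 in the SVZ, while 13 of all transcripts passed in the DG and 1 in the SVZ. The smallest belonged in the DG to Mrpl58-202 of Mrpl58, a peptidyl-tRNA hydrolase of the large subunit, with means of 21.7 FPKM in KO and 15.6 FPKM in control in the authors' deposited table.

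Transcripts of 1 gene could differ in size or direction. Of Mrps12 in the SVZ, Mrps12-201 was at 11.1, 16.2 and 15.0 FPKM in KO libraries, against 3.73, 7.58 and 9.16 FPKM in control libraries, a KO to control fold of 2.06 in the authors' deposited table (p 0.00338). Mrps12-204 was at 17.2, 13.5 and 14.6 FPKM in SVZ KO libraries, against 15.6, 18.5 and 18.3 FPKM in SVZ control libraries. The first thus made up 48.3% of the gene in SVZ KO libraries and 28.1% in SVZ control libraries. Of Mrps11 in the DG, Mrps11-205 was at 7.51, 9.44 and 5.71 FPKM in KO libraries, against 0.753, 3.58 and 3.19 FPKM in control libraries, while the main transcript Mrps11-201 overlapped between the groups, at means of 10.8 FPKM in KO and 9.71 FPKM in control in the authors' deposited table. The lower SVZ level of Mrps33 in KO came from Mrps33-202, at 10.5, 12.1 and 11.0 FPKM in KO libraries, against 16.9, 12.9 and 14.8 FPKM in control libraries. By its main transcript alone Mrps33 had a difference of 0.06 in the SVZ, against -0.18 over all transcripts, which was -0.10 without SVZ control a and -0.28 without SVZ control b. The sources used here do not give how reads were split between transcripts.

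Copies and neighbours limit some values. Processed pseudogenes listed beside 3 genes took a large share of the level of gene and copies together: Mrpl23-ps1 held 96.4% in DG controls and 97.4% in SVZ controls, Mrpl48-ps 64.5% and 67.9%, and the copies of Mrps36 54.4% and 49.7%. Mrpl23 and its copy summed to 37.6, 41.7 and 43.0 FPKM in DG KO libraries, against 29.1, 31.8 and 31.4 FPKM in DG control libraries, a ratio of 1.32. This sum was separated between the groups, whereas Mrpl23 alone overlapped at about 1 FPKM. Mrpl48 and its copy had a ratio of 1.31 in the DG and 1.16 in the SVZ, and Mrps36 and its copies ratios of 1.00 in both. Reads of these pairs could be assigned to either copy, so the levels of Mrpl23, Mrpl48 and Mrps36 are uncertain. In all, 33 of the 78 genes share exon bases with another annotated gene, 28 of them with one on the opposite strand.

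The genes of the family are short, and in the DG the KO difference of all genes moved with transcript length. The most abundant transcript had a median of 920.5 bases over the 68 genes of the family with a known length, against 2569.5 bases over all DG genes with one. Over all genes, the median KO minus control in the DG was 0.23 up to 500 bases, 0.16 from 500 to 1000, 0.12 from 1000 to 1500, 0.09 from 1500 to 3000 and 0.05 above 3000 bases. The family had medians of 0.38 over 5 genes, 0.23 over 32, 0.10 over 19, 0.09 over 9 and 0.15 over 3 genes in these classes. From 500 to 1000 bases, 56.3% of the family had all KO libraries above all controls, against 32.9% of all genes of that length. From 1000 to 1500 bases the share was 47.4%, against 28.7%, and from 1500 to 3000 bases it was 11.1%, against 26.0%. It was 80.0%, against 38.3%, in the class of 5 genes and 33.3%, against 21.5%, in the class of 3 genes. In the SVZ the medians of all genes lay between 0.00 and 0.06 in every class. The part of transcript length in the DG values was not tested.

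**Figure D4:**
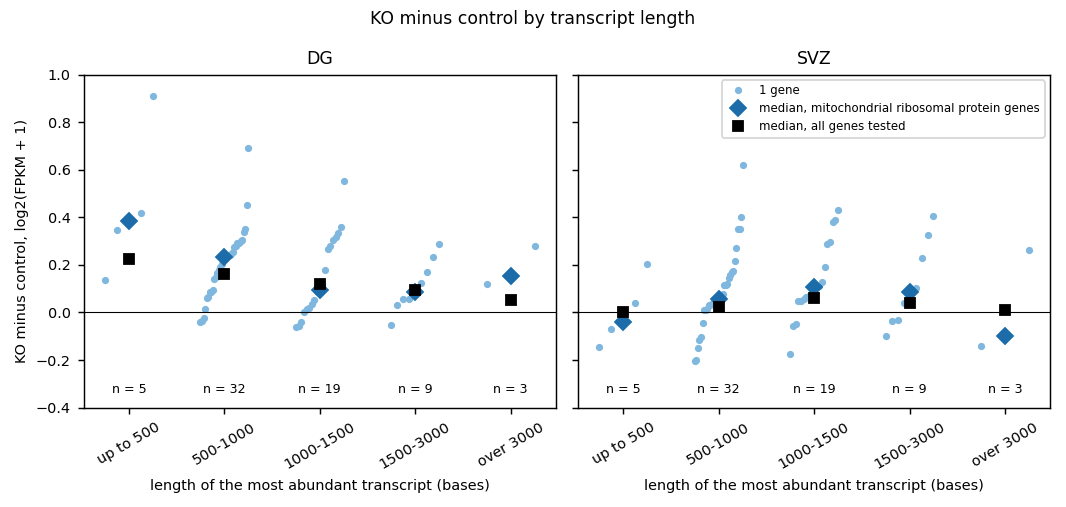
KO minus control on the log2(FPKM + 1) scale by length of the most abundant transcript in the DG (left) and SVZ (right); small points are genes of the family, diamonds their medians and squares the medians of all genes tested. In the DG the squares fall with length, 0.23 in the shortest and 0.05 in the longest class, and the diamond lies above the square up to 1000 bases and above 3000 bases; classes of 5, 9 and 3 genes are thinly filled.

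Lists of other mitochondrial genes had medians of 0.10 to 0.18 in the DG, and few genes passed. The median was 0.17 in the family and 0.09 over all genes tested. Of 5 further subunits with other names, 0 passed in either tissue, with medians of 0.16 in the DG and -0.02 in the SVZ. Dap3, a small subunit protein, was at 39.9, 37.6 and 36.4 FPKM in DG KO libraries, against 26.2, 31.2 and 31.7 FPKM in DG control libraries (log2 difference 0.35, limma adjusted p 0.0891). Chchd1, also of the small subunit, had a ratio of 1.26 with overlapping libraries. The initiation factor gene Mtif3 was at 8.66, 8.26 and 7.71 FPKM in DG KO libraries, against 6.18, 5.70 and 6.30 FPKM in DG control libraries, and the elongation factor gene Guf1 had a ratio of 1.27. The log2 difference of Mtif3 was 0.38, and 0.61 by its main transcript alone. Of 11 translation factors 0 passed, with medians of 0.18 in the DG and 0.11 in the SVZ, and of 17 mitochondrial aminoacyl-tRNA synthetases 0 passed, with medians of 0.17 and 0.14; Cars2 and Fars2 had ratios of 1.43 and 1.24 in the DG. Of 26 factors for assembly and rRNA modification 0 passed, with medians of 0.18 and 0.11. Rbfa, which helps mature the small subunit, went the other way from the subunits in the DG, at 9.35, 10.4 and 11.2 FPKM in KO libraries, against 13.8, 14.4 and 14.8 FPKM in control libraries (log2 difference -0.44, SE 0.09, limma adjusted p 0.0613). Mrm1, which methylates the large mitochondrial rRNA, also had all DG KO libraries below the controls, at a ratio of 0.733.

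Of 14 genes for mitochondrial transcription and RNA processing, 1 passed in the DG and 0 in the SVZ. Their medians were 0.10 in the DG and 0.02 in the SVZ, near the 0.09 and 0.03 of all genes tested. Hsd17b10, a subunit of mitochondrial RNase P, was at 34.6, 32.4 and 31.3 FPKM in DG KO libraries, against 20.8, 19.6 and 22.5 FPKM in DG control libraries. It rose by 0.62 (SE 0.08, limma adjusted p 0.0435), a call lost without any 1 library, when the limma adjusted p was 0.0553 to 0.207. Slirp, which stabilises mitochondrial messages, was separated at a ratio of 1.36 and did not pass. Of 57 nuclear-encoded respiratory chain subunits, the partners of the proteins that mitochondrial ribosomes make, 0 passed in either tissue, with medians of 0.16 in the DG and 0.00 in the SVZ; Atp5h and Ndufa2 had DG ratios of 1.36 and 1.35, and the log2 difference of Atp5h, 0.43, was 0.23 by its main transcript alone. Of 19 import and chaperone genes 0 passed, with medians of 0.14 and 0.08, Timm17b and Tomm22 having DG ratios of 1.68 and 1.37, and of 9 regulators of mitochondrial biogenesis 0 passed, with medians of 0.14 and 0.11. Gabpa, whose product binds ETS sites, was at 5.55, 6.32 and 6.60 FPKM in DG KO libraries, against 3.65, 5.02 and 4.07 FPKM in DG control libraries (log2 difference 0.45, limma adjusted p 0.0890), and Myc had a ratio of 1.46, with a log2 difference of 0.44 that was 0.04 by its main transcript alone.

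Cytosolic ribosomal protein genes had a larger median difference in the DG. Of the 41 genes on the list used here, 5 rose and 0 fell in the DG by limma with Benjamini-Hochberg adjustment. Of all 15454 genes tested, 52 rose and 56 fell. All 41 had a positive difference, against 65.3% of all genes. The median was 0.64, against 0.17 in the mitochondrial family and 0.09 over all genes. All KO libraries lay above all controls for 33 of the 41 (80.5%), against 25.9% of all genes. Rpl23 was at 25.3, 21.3 and 23.4 FPKM in DG KO libraries, against 11.5, 9.39 and 11.6 FPKM in DG control libraries, and its call was also lost without any 1 library (limma adjusted p 0.0536 to 0.174, against 0.0342). Rpl18 rose by 0.69, a call lost in the same way. In the SVZ 0 of 41 passed, and the median was -0.03, against 0.07 in the mitochondrial family. The difference between the lists was not tested, nor was the part of transcript length or of gene copies in it.

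**Figure D5:**
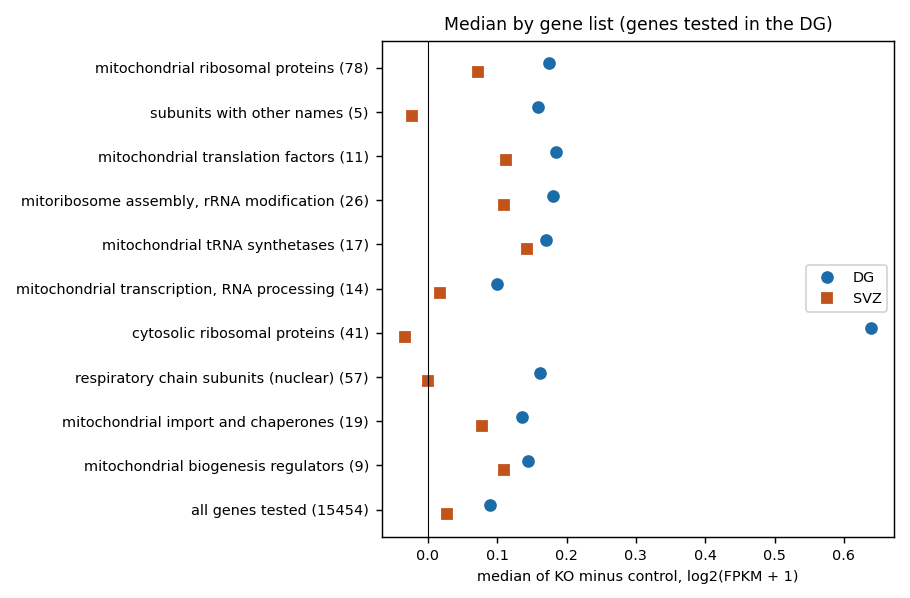
Median KO minus control on the log2(FPKM + 1) scale for the mitochondrial ribosomal protein genes, 9 further lists and all genes tested, with the DG as circles and the SVZ as squares; the number of genes tested in the DG stands in brackets. In the DG the mitochondrial lists lie between 0.10 and 0.18 and cytosolic ribosomal proteins at 0.64, and in the SVZ all lists lie between -0.03 and 0.14.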

How the data were processed

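The authors deposited one table per tissue with FPKM values per transcript and library, which the file names call scaled by TMM. They also deposited a comparison table per tissue with a p-value, a step-up false discovery rate and a signed fold score (control over KO, per the file headers). Per the labels' protocols, libraries were made from polyA-selected RNA with an Agilent kit. The submitters' processing notes name CASAVA 1.8.4, TopHat2 2.1.0, Partek and GRCm38. Use of strand and the assignment of reads to transcripts are not stated in the sources used here.

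Transcript names came from the comparison table, joined to the FPKM table by gene name and group means within a relative 0.0001. For 89 transcripts only the means joined them. Transcripts were summed per gene. Genes averaging 0.5 FPKM or more were tested in limma 3.58.1 (R 4.3.3) on log2(FPKM + 1), KO minus control within each tissue, with trended variance and Benjamini-Hochberg adjustment at 0.05 over all genes; fold changes on this scale understate low genes. The difference of effects was fitted over all libraries. The code was tested on simulated data. All per-sample columns were used. Columns name a group and no replicate number, so the letters a, b and c follow column order and pair nothing.

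Named genes were, in each tissue, the 10 smallest p-values, the 3 most positive and 3 most negative differences and the 3 highest and 3 lowest control levels, the 3 smallest p-values for the difference, fixed landmark subunits, and the 2 smallest DG p-values of each further list. Other genes were named for separation, transcripts or copies after their values were seen. The family and all lists were chosen with earlier results of these data known. Alternatives covered the pseudocount, the filter, normalization, the main transcript alone, each library left out and a sex term.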

Additional observations from a re-analysis of the deposited data

How the results depend on the processing

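The family's median difference in the DG kept its direction under every alternative run. It was 0.10 under median centring, where the median of all genes was 0.01. Leaving out 1 library gave medians of 0.16 to 0.20 in the DG and 0.04 to 0.14 in the SVZ. No gene of the family passed in the DG or for the difference of effects under any of these, with 0 to 0 when 1 library was left out, and 0 to 2 passed in the SVZ, the 2 being Mrpl2 and Mrps17 without SVZ KO a. Mrps33 turned to 0.0598 in the SVZ and its difference of effects to 0.0583 with the main transcript alone, since other transcripts carried the lower KO level. Without 1 library, Mrpl44 ranged from -0.155 to 0.0669 and Mrps2 from -0.132 to 0.0044 in the DG, both turning positive without DG KO c, and the cause was not tested. The number of all genes passing in the DG was 108 and depended on the settings: 76 with a pseudocount of 0.1, 241 with a minimum of 2 FPKM, 60 with the main transcript alone, 3 with a sex term and 0 to 3 without 1 library. With the sex term, which was chosen after seeing the data, Hsd17b10, Rpl18 and Rpl23 no longer passed (limma adjusted p 0.0637 for each). No paired analysis was possible because the columns name a group and no replicate number, so the fit with a replicate block was not run. The estimated reads per FPKM limit genes at about 1 FPKM, such as Mrpl23.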
